A study of Saccharomyces cerevisiae with 33 samples.

Results

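The double deletion strain ino2Δino4Δ was grown under nitrogen limitation (N-limitation) and under carbon limitation (C-limitation), and its transcriptomes under both limitations are compared here. The arrays were chosen by their titles, 3 from N-limited and 3 from C-limited cultures, so that 6 of the 33 arrays of the series belong to the comparison. Of the 10928 probe sets on each array, 5498 were paired with exactly 1 Saccharomyces cerevisiae gene. They give 5449 genes, and all of them were tested.

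The study varied the level of the transcription factors Ino2 and Ino4 in chemostats, with 3 arrays for each of 11 groups of strain and limitation. In the double deletion both INO2 and INO4 are replaced by a loxP-Kan-loxP cassette in 1 prototrophic strain of mating type a, a derivative of CEN.PK113-7D. The arrays of ino2Δ, of ino4Δ and of the reference CEN.PK113-7D, each N-limited and C-limited, serve for comparison below. All cultures were aerobic, ran at a common dilution rate on minimal medium with inositol and choline added, and were sampled at steady state. The labels do not say whether the 3 arrays of a group come from separate cultures, so p-values measure only spread between arrays. That spread is pooled for each gene over the 11 groups of the series, not taken from the compared arrays alone. A culture is a bulk sample, in which a change in some of the cells and a smaller change in all of them cannot be told apart.

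Ino2 and Ino4 form a heterodimer that binds the inositol-sensitive element upstream of phospholipid genes such as INO1, and Opi1 represses them through Ino2. Yeast on little glucose derepresses the genes for other carbon sources through Snf1, Cat8 and Adr1 and makes high-affinity hexose transporters, whereas N-limited cells usually have glucose left. Yeast short of a good nitrogen source relieves nitrogen catabolite repression: the GATA activators Gln3 and Gat1 turn on permeases and catabolic enzymes for poor nitrogen sources, and the GATA repressors Dal80 and Gzf3 act on many of the same promoters.

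Levels are given as log2 signal, where 5.47 is the background level set by probe sets of genes outside S. cerevisiae. A difference is the log2 level under N-limitation minus that under C-limitation, with the standard error of a linear model over all 33 arrays (limma, n = 3 arrays in each group), and a gene passed at a Benjamini-Hochberg adjusted p below 0.01 over the 5449 genes. A fold change is given as "at least" where the mean of 1 group lies at or below background, and is then computed against the background level. Levels of different probe sets are not compared with each other.

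The levels of the deleted genes were read first. INO2 gave 5.11 on each of the N-limited double deletion arrays and 5.17, 5.15 and 5.14 on the C-limited ones, all below background, against 5.90, 5.95 and 5.95 in the N-limited and 6.26, 6.19 and 6.25 in the C-limited reference. INO4 gave 5.05, 5.15 and 5.18 on the N-limited double deletion arrays. On the arrays labelled C-limited double deletion it gave 6.64, 5.09 and 5.15, against 7.56, 7.64 and 7.26 in the N-limited and 6.92, 6.74 and 6.96 in the C-limited reference. The array labelled C-limited double deletion replicate 1 thus goes against its label for INO4. Its most similar array in the series was C-limited ino2Δ replicate 1 (Pearson r = 0.997 over genes), whereas replicates 2 and 3 were most similar to the array labelled C-limited ino4Δ replicate 3 (r = 0.997 for both). In all, 4 of the 33 arrays carry INO2 or INO4 against their label: this one, C-limited ino2Δ replicates 2 and 3, which lack INO4, and C-limited ino4Δ replicate 3, which lacks INO2. The labels were kept. Between N- and C-limited double deletion, an exact two-sided permutation test gave p = 0.1 for INO2 and p = 0.6 for INO4, where 0.1 is the smallest p that 3 against 3 arrays allow.

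The N-limited double deletion arrays also differ among themselves. Replicates 1 and 3 correlated at r = 0.981, replicates 1 and 2 at 0.944 and replicates 2 and 3 at 0.920. Replicate 2 was about as similar to the arrays labelled C-limited ino2Δ replicates 2 and 3 (r = 0.944 for both) as to replicate 1. HAC1, the transcription factor of the unfolded protein response, read 7.04, 10.19 and 6.87 on N-limited arrays 1, 2 and 3, against 9.76, 10.13 and 10.56 on the C-limited ones, and PMA1, the plasma membrane proton pump (named after its values were seen), read 8.65, 11.08 and 8.25 against 10.63, 11.08 and 11.08. The N-limited reference has 1 array of the same kind (replicate 1, with 6.31 for HAC1 against 9.31 and 9.82 on the others). These 3 arrays (N-limited double deletion replicates 1 and 3 and N-limited reference replicate 1) are called uneven below. A model without them keeps only replicate 2 of the N-limited double deletion, so its counts rest on that 1 array for this group. The name does not mark them as faulty. In the N-limited double deletion, replicates 1 and 3 are the most alike, with 50 genes differing by over 1 log2. Replicate 2 stands apart, with 179 and 373 such genes against replicates 1 and 3. The part of the uneven arrays in the results was not tested, but counts from a model without them (and without 2 arrays of another strain of the same kind) stand beside the results where they bear on them. Of the mating type genes, all 7 a-specific genes lay above background on every double deletion array, while of 4 alpha-specific genes MF(ALPHA)2 stayed below it on every array, MF(ALPHA)1 lay between 5.35 and 5.76, and STE3 (5.98 to 6.30) and SAG1 (6.44 to 7.31) lay above it.

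In the double deletion 1404 genes passed, 25.8% of those tested, 781 higher (14.3%) and 623 lower (11.4%) under N-limitation than under C-limitation. The N- and C-limited arrays did not overlap for 1525 genes with N-limitation above (28.0%) and for 979 with N-limitation below (18.0%), and 1367 genes passed and did not overlap (25.1%). The median difference over all genes was 0.05. In the reference 1268 genes passed (23.3%), 799 higher (14.7%) and 469 lower (8.61%), with a median of 0.06. Of the genes that passed in the double deletion, 276 were higher in both strains (35.3% of the double deletion's and 34.5% of the reference's) and 275 were lower in both (44.1% and 58.6%), whereas 20 were higher in the double deletion but lower in the reference and 13 the other way round. Across the 5449 genes, which are not independent, the differences of both strains correlated at r = 0.669; the strains share no arrays. The difference between the strains itself passed for 414 genes (7.60%), 176 with a more positive (3.23%) and 238 with a more negative response in the double deletion (4.37%), at a median of -0.03. Counts within gene lists below are to be read against these shares over all genes (14.3% higher and 11.4% lower in the double deletion). Without the 4 arrays that go against their label 1115 genes passed in the double deletion, 556 higher and 559 lower, and the difference from the reference passed for 607, 273 more positive and 334 more negative. Without C-limited double deletion replicate 1 alone, the array that carries INO4, 497 were higher and 492 lower, so both counts are close without it. Other single arrays move the counts as well: 900 genes passed without N-limited double deletion replicate 1 and 915 without replicate 3, and 370 higher and 354 lower genes passed in the full model and also without each of the 6 arrays in turn. Without N-limited reference replicate 1, the difference between strains passed for 636 genes.

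**Figure D1:**
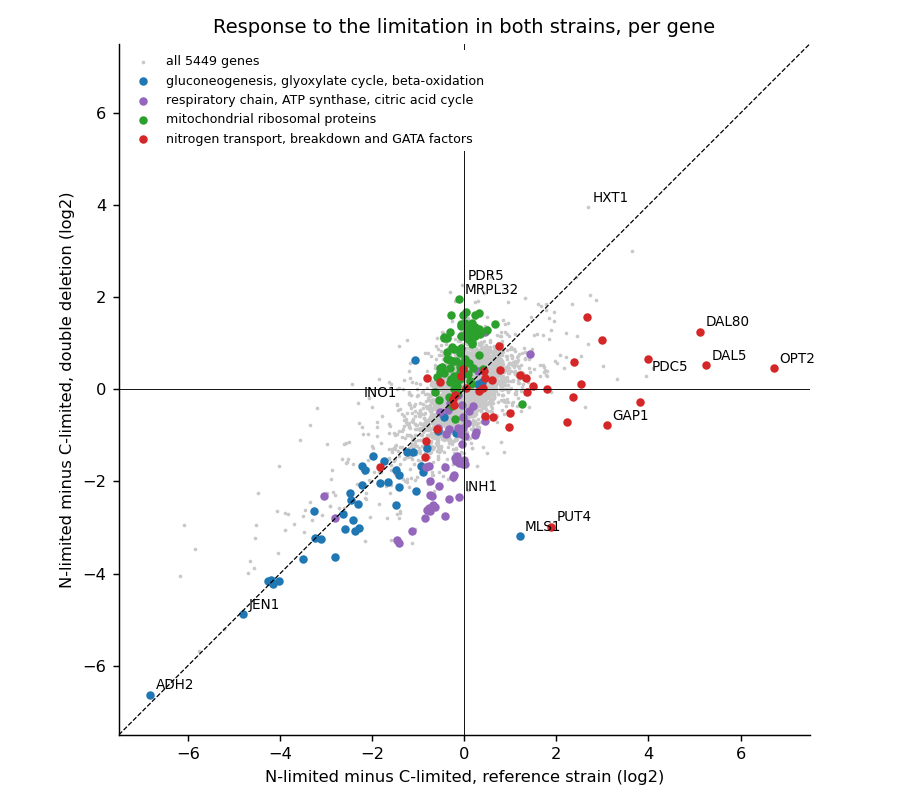
Each point is a gene, with the N-limited minus C-limited difference (log2) in the double deletion on the vertical axis and in the reference on the horizontal axis; the dashed line marks equal responses. Most genes for use of non-fermentable carbon (blue) lie near the line, as does ADH2 (-6.63 in the double deletion and -6.82 in the reference), with MLS1 (strain difference -4.39) and DLD1 (1.69) far from it, several nitrogen genes (red) such as OPT2 (0.46 and 6.73) lie far to the right and near 0 vertically, most mitochondrial ribosomal protein genes (green) stand above 0 and most respiratory and citric acid cycle genes (purple) below it.

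Genes for the use of non-fermentable carbon were lower in N-limited than in C-limited double deletion, by amounts close to those in the reference. Of 22 measured genes of gluconeogenesis and the glyoxylate cycle, 20 fell and none rose, with a median difference of -2.55; in the reference 19 fell and 1 rose, with a median of -2.22. ADH2, the alcohol dehydrogenase that oxidises ethanol, read 5.48, 5.22 and 5.45 on the N-limited arrays and 12.34, 11.86 and 11.84 on the C-limited arrays. The N-limited mean is at background and the groups lie far apart, so ADH2 was at least 93.4-fold lower (difference -6.63 ± 0.74, limma adjusted p = 1.83e-07). Its standard error of 0.74 pools all groups. The SD of ADH2 was 0.14 and 0.28 in N- and C-limited double deletion but 2.68 in C-limited ino2Δ and 1.66 in C-limited ino4Δ. JEN1, the lactate and pyruvate permease, read 6.44, 6.18 and 6.27 under N-limitation and 11.56, 11.04 and 10.94 under C-limitation, a 29.5-fold fall (-4.88 ± 0.33). The acetate permease gene ADY2 (-4.22), the mitochondrial succinate-fumarate carrier gene SFC1 (-4.15) and ACS1, an acetyl-CoA synthetase (-4.14), fell by similar amounts in the reference, at -4.15, -4.27 and -4.20. For none of them did the strain difference pass, at a standard error of 1.14 for ADY2 and 0.63 for ACS1. These errors are wide, so the test could miss a sizeable difference between the strains.

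Key enzymes of gluconeogenesis and the glyoxylate cycle followed. FBP1, fructose-1,6-bisphosphatase, read 5.44, 5.41 and 5.51 against 8.12, 7.88 and 7.79, and ICL1, isocitrate lyase, read 6.30, 6.25 and 6.21 against 9.10, 9.49 and 9.29. PCK1, phosphoenolpyruvate carboxykinase, fell too (-2.20 ± 0.40), but its C-limited arrays spread widely, at 7.73, 9.61 and 9.49, and the lowest is the array that goes against its label. The genes of their activators CAT8 (-1.27), ADR1 (-1.76) and SIP4 (-1.55) fell too. In the whole list the strain difference passed for 2 genes, and for 5 (1 more positive and 4 more negative) without the arrays against their label. DLD1, the mitochondrial D-lactate dehydrogenase, was at 9.93, 10.28 and 9.89 in N-limited and 9.46, 9.37 and 9.39 in C-limited double deletion, a difference of 0.63 that did not pass (adjusted p = 0.0185), against -1.07 in the reference. The other was MLS1, described with the nitrogen genes below.

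Peroxisomal beta-oxidation, which breaks fatty acids down to acetyl-CoA in yeast, showed the same picture. Of 21 measured genes 19 fell and none rose (median -2.07), against 18 lower and 1 higher in the reference (median -1.98). The strain difference passed for none of the 21, with a standard error of 0.83 for POX1. Without the arrays against their label it passed for 1, more negative. CTA1, the peroxisomal catalase, read 5.18, 5.21 and 5.22 under N-limitation and 9.71, 9.22 and 9.20 under C-limitation, at least 15-fold lower. POX1, the acyl-CoA oxidase, averaged 5.95 ± 0.06 against 9.63 ± 0.03 (SD, n = 3 each), a 12.8-fold fall, and the later enzymes POT1 (-3.24) and FOX2 (-3.22) fell by similar amounts. Among the 15 largest falls were also RGI2, a gene induced in respiratory growth (at least 46.7-fold lower), FDH1, formate dehydrogenase (at least 28.7-fold, with C-limited values of 11.82, 9.32 and 9.80), the ammonia and acetate export genes ATO3 (-3.98) and ATO2 (-3.73), YIG1 (-3.64) and the uncharacterised YDL218W (at least 12-fold).

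Genes of hexose transport differed in both directions between the limitations. Of 19 measured transporters, sensors and kinases, 4 rose and 9 fell in the double deletion, and 4 rose and 5 fell in the reference. HXT1, the low-affinity transporter used at high glucose, gave the largest rise of all genes that passed without overlap, with 10.21, 9.57 and 10.25 in N-limited and 6.06, 5.97 and 6.11 in C-limited double deletion, a 15.6-fold rise (3.96 ± 0.14). This exceeded the 2.68 of the reference, and the difference of 1.28 ± 0.20 passed (adjusted p = 5.71e-05). HXT3, also of low affinity, rose by 3.01, with 10.15, 11.59 and 9.62 against 8.08, 7.06 and 7.17. HXT7, of high affinity, was at 8.52, 8.10 and 8.56 under N-limitation and at 11.50, 11.86 and 11.84 under C-limitation, a 10.1-fold fall that was larger than in the reference (-3.34 against -1.13; difference -2.21 ± 0.25). HXT2 (-2.70), HXT5 (-2.95) and the hexokinase gene HXK1 (-2.68) fell as well, and HXT5 fell less than the -4.52 of the reference (difference 1.57 ± 0.32). HXT genes are close copies, and probe sets for HXT7 and others may read more than 1 of them. SUC2, invertase, fell by 3.29 (7.40, 7.44 and 6.52 against 9.73, 10.67 and 10.81), as did the maltose permease gene MAL11 (-2.79) and the maltase gene MAL32 (-1.98). In the list of invertase and maltose genes 5 of 8 fell, and 3 of 8 did in the reference, and the strain difference passed for 1.

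**Figure D2:**
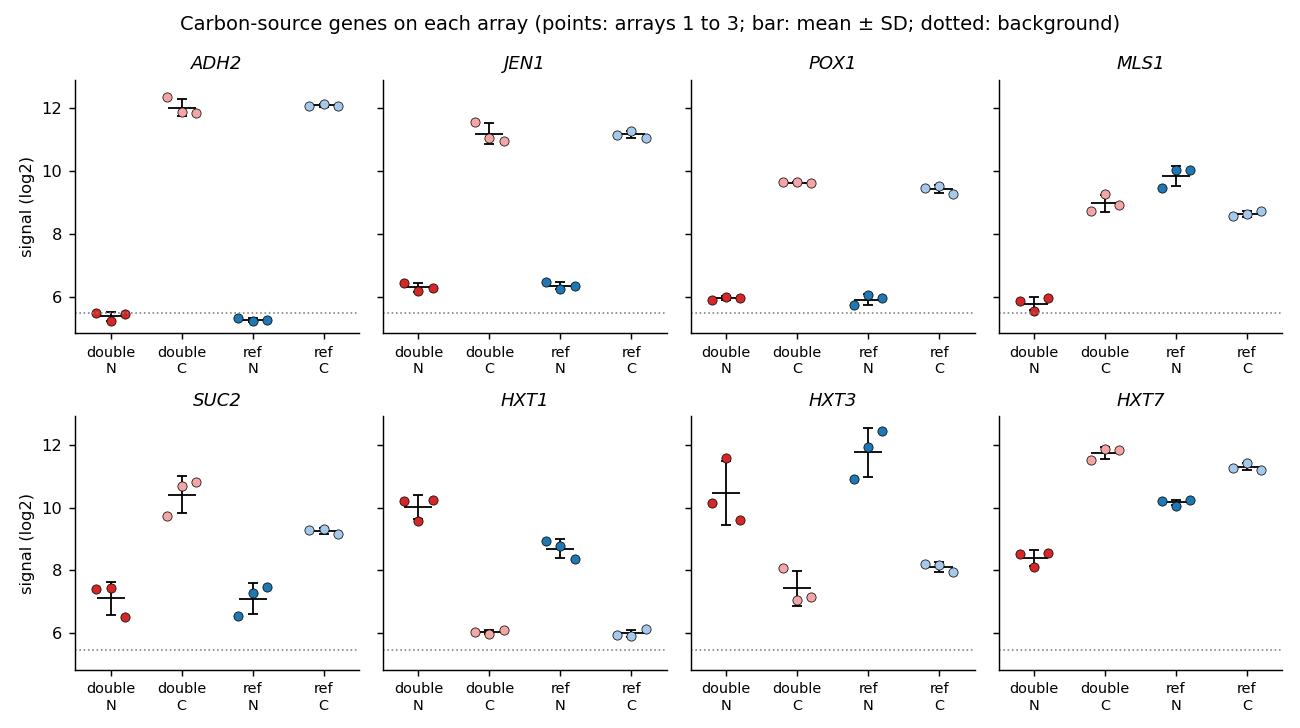
Log2 signal of 8 carbon-source genes on each array of N- and C-limited double deletion (red, pale red) and N- and C-limited reference (blue, pale blue); points are arrays, bars mean ± SD of 3 arrays, and the dotted line is background at 5.47. ADH2, JEN1 and POX1 have the same shape in both strains, HXT1 and HXT7 move further in the double deletion, and MLS1 is low only in the N-limited double deletion among the 4 groups.

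The nitrogen-source genes, by contrast, gave few calls. Of 14 measured transporters for nitrogen sources, 1 rose and 1 fell in the double deletion (median 0.18), whereas 12 rose and none fell in the reference (median 2.46). The strain difference passed for 9 of the 14, all more negative in the double deletion, and 9 also passed without the uneven arrays. Without those arrays 2 transporters rose and 1 fell in the double deletion, and without the arrays against their label 2 rose and 2 fell. OPT2, an oligopeptide and glutathione transporter, read 5.36, 5.71 and 5.53 in N-limited and 4.95, 5.07 and 5.21 in C-limited double deletion. Its N-limited mean barely exceeds background although the difference of 0.46 ± 0.10 passed, and the reference stood at 11.55, 11.69 and 11.99 under N-limitation and 5.03, 4.99 and 5.02 under C-limitation (6.73). The difference between the strains was -6.27 ± 0.14, the most negative of all genes that passed (adjusted p = 9.51e-22).

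DAL5, the allantoate permease, gave 7.37, 7.11 and 6.75 in N-limited and 6.46, 6.58 and 6.62 in C-limited double deletion. The difference of 0.52 ± 0.24 did not pass (adjusted p = 0.0800), against a rise of 5.25 in the reference, where the N-limited arrays read 11.84, 11.83 and 12.14. GAP1, the general amino acid permease, averaged 7.82 ± 0.28 in N-limited and 8.60 ± 0.35 in C-limited double deletion (SD, n = 3 each). It was lower on every N-limited array, though not past the threshold (-0.78, adjusted p = 0.0301), and GAP1 rose by 3.10 in the reference. PUT4, the proline permease, fell: it read 6.44, 6.51 and 6.12 in N-limited and 9.63, 9.16 and 9.21 in C-limited double deletion (-2.98 ± 0.32, 7.88-fold), and rose by 1.89 in the reference. PUT4 is thus the transporter with opposite calls in the double deletion and the reference.

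PTR2, the di- and tripeptide transporter (5.79, 6.43 and 5.81 against 5.75, 6.52 and 6.57), DAL4, the allantoin permease (5.41, 5.50 and 5.28 against 5.43, 5.58 and 5.65) and DUR3, the urea transporter (6.95, 6.77 and 6.58 against 6.72, 6.57 and 6.65), overlapped between the limitations in the double deletion. In the reference they rose by 3.81, 2.36 and 2.53. DIP5, the dicarboxylic amino acid permease, read 6.96, 7.21 and 6.98 in the N-limited double deletion and 5.36, 6.89 and 6.94 in the C-limited one. Only the array that goes against its label was as low as the C-limited reference, at 5.29 to 5.32. AGP1, an amino acid permease of broad range, behaved likewise, with 7.68, 8.26 and 7.45 against 6.41, 8.57 and 8.58. The high-affinity ammonium permease MEP2 was the transporter with the most positive difference, at 1.58 ± 0.63 (10.29, 10.11 and 10.31 against 9.83, 8.07 and 8.07), and did not pass (adjusted p = 0.0463). For MEP2 the strain difference of -1.08 did not pass either, and UGA4 (0.24), MEP1 (-0.85), MEP3 (0.43) and OPT1 (0.59) completed the list without a call in the double deletion.

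**Figure D3:**
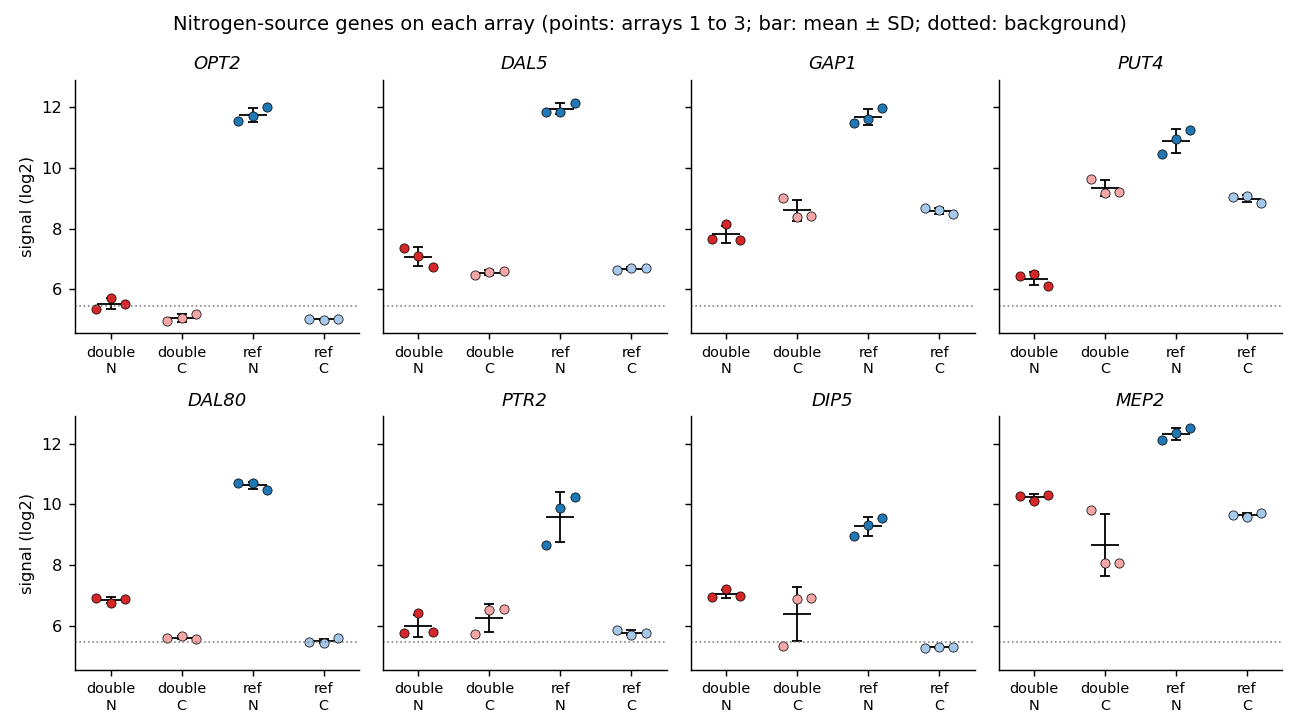
Log2 signal of 8 nitrogen-source genes on each array of N- and C-limited double deletion (red, pale red) and N- and C-limited reference (blue, pale blue); points are arrays, bars mean ± SD of 3 arrays, and the dotted line is background at 5.47. The 3 N-limited reference arrays lie above all other arrays for every gene shown, at 11.55 to 11.99 for OPT2. The N-limited double deletion stays near its C-limited level for OPT2, DAL5, PTR2 and DIP5 and lies below it for PUT4 and GAP1. For DAL80 and MEP2 it lies above that level, by less than in the reference.

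Among enzymes that break down poor nitrogen sources, 1 of 14 measured genes rose and 2 fell in the double deletion (median -0.10), near the shares over all genes (14.3% higher and 11.4% lower), against 5 higher and 1 lower in the reference (median 0.69). None of the 3 calls passed in every model that left out arrays: that of DAL7 was lost without N-limited replicate 1, that of GDH2 without N-limited replicate 3 or C-limited replicate 1 and that of CAR2 without the uneven arrays, and without N-limited replicate 2 the counts were 1 and 4. The riser was DAL7, the malate synthase of allantoin breakdown, with 7.63, 7.15 and 7.54 in N-limited and 6.57, 6.27 and 6.23 in C-limited double deletion (1.08 ± 0.26), less than in the reference, where the N-limited arrays read 9.93, 9.44 and 9.47 (difference -1.92 ± 0.36). PUT1, proline oxidase, read 7.68, 8.48 and 7.51 against 8.53, 8.57 and 8.69. The -0.71 did not pass (adjusted p = 0.0289), and PUT1 rose by 2.23 in the reference. The asparaginase gene ASP3-1, 1 of several near-identical copies, had a difference of 0.00 against 1.80, and DAL1, allantoinase, stayed at background (5.46, 5.55 and 5.45 against 5.39, 5.40 and 5.42) where the reference rose by 1.50. CAR2, ornithine transaminase (-1.68), and GDH2, the NAD-dependent glutamate dehydrogenase (-1.11), fell, and CAR2 fell by 1.82 in the reference as well. In this list the strain difference passed for 4 of the 14 genes, all more negative.

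Among 13 GATA factors and ammonium assimilation genes 1 rose and 1 fell, against 4 and 2 in the reference, and without N-limited replicate 2 the counts in the double deletion were 2 and 3. The strain difference passed for 4 of the 13, all more negative. DAL80, a GATA repressor that is itself a target of the activators, read 6.93, 6.75 and 6.90 in N-limited and 5.61, 5.67 and 5.57 in C-limited double deletion. The groups do not overlap and DAL80 rose 2.37-fold (1.25 ± 0.21), while the reference rose by 5.12 to 10.71, 10.69 and 10.49 (difference -3.87 ± 0.29). The activator gene GAT1 differed by 0.31 ± 0.13 (9.04, 9.16 and 8.75 against 8.94, 8.51 and 8.56), without a call, against 1.22 in the reference. GLN3, whose product is regulated mostly by its place in the cell, differed by -0.13, and the repressor gene GZF3 by 0.39. GLT1, glutamate synthase, read 8.71, 9.54 and 8.11 against 9.48, 9.29 and 9.13 (-0.51, not passing), and its difference from the reference passed (-1.50). GLN1, glutamine synthetase (-0.57), and GDH1, the main NADP-dependent glutamate dehydrogenase (0.04), did not pass, and its isozyme GDH3, known from growth on ethanol, fell by 1.47.

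Vacuolar proteases, which recycle protein during starvation, also lacked the rise of the reference. None of 6 rose and 2 fell in the double deletion, PRB1 (8.25, 9.51 and 7.67 against 10.39, 10.41 and 10.53) and PRC1 (-0.68), but both calls were lost without N-limited replicate 1 or 3, and that of PRC1 also without any single C-limited array. CPS1, carboxypeptidase S, read 8.53, 9.05 and 8.22 against 9.09, 8.89 and 8.98, without a call, where the reference rose by 2.62 (difference -3.01 ± 0.25). PEP4 and DAP2 also had a more negative response than the reference.

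Other genes with the largest strain differences have known places in carbon metabolism. MLS1, the malate synthase of the glyoxylate cycle and a close paralog of DAL7, read 5.85, 5.54 and 5.95 in N-limited and 8.74, 9.26 and 8.90 in C-limited double deletion, a 9.11-fold fall. In the reference it rose by 1.20, with 9.47, 10.02 and 10.03 against 8.55, 8.63 and 8.74, so MLS1 passed in opposite directions (difference -4.39 ± 0.26, adjusted p = 6.16e-12). PDC5, a pyruvate decarboxylase isozyme, read 9.06, 9.55 and 8.92 against 8.70, 8.90 and 9.09 in the double deletion (0.28, no call) and rose by 3.95 in the reference. Of 20 measured genes of glycolysis and ethanol formation, 2 rose and none fell, the alcohol dehydrogenase genes ADH5 (1.12, against a fall by 0.60 in the reference) and ADH3 (0.71). Without the uneven arrays 6 rose and none fell, and without those against their label 5 rose and 1 fell. EEB1, an ethyl ester synthase, differed by 0.46 (7.36, 6.84 and 7.35 against 6.62, 6.80 and 6.77; adjusted p = 0.0212) and rose by 4.09 in the reference, where its 3 N-limited arrays read 10.79, 10.73 and 10.82.

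The citric acid cycle and the respiratory chain were lower in the N-limited double deletion, and more so than in the reference. Of 16 measured genes of the cycle 12 fell and 1 rose (median -1.69), against 4 lower and none higher in the reference (median -0.48); the strain difference passed for 5, all negative, and for 8 without N-limited replicate 2. Succinate dehydrogenase, which belongs to both systems, showed it in its 4 subunits. SDH4 read 7.66, 8.24 and 7.32 in N-limited and 10.13, 10.48 and 10.57 in C-limited double deletion (-2.65 ± 0.22) and fell, and so did SDH1 (-3.27), SDH2 (-3.33) and SDH3 (-1.86). SDH3 and SDH4 fell further than in the reference (differences -1.63 and -1.90), and for SDH1 and SDH2 that difference did not pass (adjusted p = 0.0171 and 0.0244). The rise was in IDH2, a subunit of NAD-dependent isocitrate dehydrogenase (11.11, 11.18 and 10.92 against 9.43, 10.11 and 9.91), named after its values were seen.

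Of 39 measured subunits of the respiratory chain and ATP synthase, 32 fell and 1 rose in the double deletion (median -1.18), against 4 lower and 1 higher in the reference (median -0.14). The strain difference passed for 19, all negative. INH1, an inhibitor protein of the ATP synthase, had the least spread, with 8.24, 7.97 and 8.17 in N-limited and 10.44, 10.48 and 10.46 in C-limited double deletion (-2.33 ± 0.09, 5.04-fold, adjusted p = 9.32e-16), and was at -0.11 in the reference. COX5A, a subunit of cytochrome c oxidase, read 8.11, 8.61 and 7.82 against 10.45, 10.59 and 10.67 and fell 5.23-fold. The ATP synthase genes ATP2 (-2.80), ATP5 (-2.74), ATP3 (-2.58) and ATP7 (-2.51) and the Rieske protein gene RIP1 (-3.08) fell further, but they read lowest on the uneven arrays, as in RIP1 at 6.34, 8.13 and 6.12 against 9.87, 9.84 and 10.13. Without those arrays 34 of the 39 genes fell, at the same median of -1.18, in a model that leaves 1 N-limited double deletion array and assumes that it varies like the other groups. The single rise was COX5B, the alternative form of COX5A known from hypoxic growth (0.76; named after its values were seen).

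Genes for mitochondrial ribosomal proteins went the other way. The list was gathered by gene name and also holds MRP8 and the MRX genes, not all of which are known ribosomal proteins. Of its 77 measured genes, 43 rose and 3 fell in the N-limited double deletion (median 0.67), and N-limited arrays lay above C-limited ones for 48. In the reference 3 rose and none fell (median -0.07), and the strain difference passed for 23, of which 22 were positive. That count rests on single arrays: 14 were positive without N-limited replicate 1, 13 without C-limited replicate 1, 11 without the uneven arrays and 38 without the arrays against their label, and 6 passed in every model that left out arrays. The median level of the list was 9.07, 8.93 and 8.86 on N-limited and 7.81, 7.95 and 7.98 on C-limited double deletion arrays, against 7.78, 7.77 and 7.71 and 7.80, 7.79 and 7.88 in the reference. The list is therefore high on all 3 N-limited double deletion arrays, the uneven ones and the other alike. MRPL32 read 10.09, 9.65 and 10.17 against 7.84, 7.99 and 8.20, a 3.89-fold rise (1.96 ± 0.25), and was at -0.11 in the reference. MRPL37 (1.69), MRPL44 (1.65), MRP10 (1.62), RSM19 (1.61) and MRPS17 (1.61) followed, all large or small subunit proteins. The 3 that fell were MRP8 (-0.64), MRX9 (-0.36) and MRX3 (-0.31, against 1.25 in the reference), named after their values were seen. None of these 3 is an established protein of the mitochondrial ribosome. Without the uneven arrays 36 rose and 2 fell, and 27 of the 43 rises passed in every model that left out arrays.

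**Figure D4:**
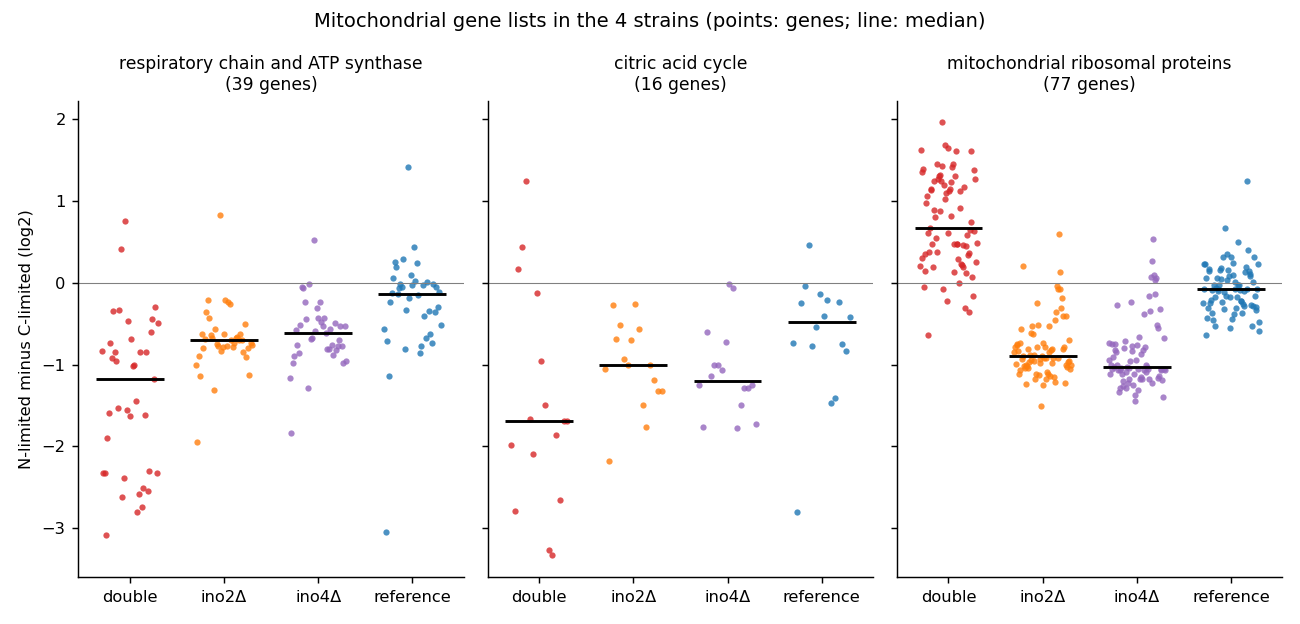
N-limited minus C-limited difference (log2) of each gene (points) and median (line) for respiratory chain and ATP synthase, citric acid cycle and mitochondrial ribosomal proteins, in double deletion, ino2Δ, ino4Δ and reference. Medians of the mitochondrial ribosomal proteins are 0.67, -0.90, -1.03 and -0.07 from left to right, and those of the respiratory chain -1.18, -0.70, -0.61 and -0.14; the C-limited arrays of ino2Δ and ino4Δ include 3 that go against their label.

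COX17, MDM35 and CIS1 were among the 15 largest rises and were set side by side after their values were seen. COX17, the copper chaperone of cytochrome c oxidase, read 10.53, 10.41 and 10.85 in N-limited and 8.14, 8.48 and 8.43 in C-limited double deletion, a 4.76-fold rise, and was at 0.19 in the reference. MDM35, an intermembrane space protein that serves lipid transfer in mitochondria, rose 3.77-fold (10.43, 9.75 and 10.39 against 8.06, 8.42 and 8.34). HSP10, the mitochondrial co-chaperonin of the stress gene list, rose by 0.97 and fell by 0.50 in the reference (difference 1.47 ± 0.20). CIS1, a factor in the response to blocked mitochondrial import, read 8.77, 8.76 and 8.91 against 6.85, 6.56 and 6.71 (2.11 ± 0.25), with -0.30 in the reference.

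Of 21 measured drug export genes of the pleiotropic network, 5 rose and 2 fell in the double deletion, not far from the shares over all genes (14.3% and 11.4%), and 4 rose and 2 fell in the reference. The strain difference passed for 4 of them, PDR5 among these. PDR5, the main ABC drug efflux pump, read 10.51, 11.19 and 10.13 in N-limited and 8.21, 8.41 and 8.42 in C-limited double deletion, a 4.80-fold rise (2.26 ± 0.16), and was at -0.04 in the reference (difference 2.30 ± 0.23). Its activator PDR3 rose by 0.81, and PDR15, a paralog of PDR5, by 0.88. RSB1, a sphingoid base translocator, rose at least 2.80-fold and by a like amount in the reference (1.86 and 1.78). PDR12, the weak acid pump (-2.67), and the polyamine transporter gene TPO4 (-1.67) fell. DLD3, a cytosolic lactate dehydrogenase (1.91), INA1 (2.10), YGR035C (1.98), ICY1 (2.43), the Ty element gene YBL005W-A (2.45) and COS2, of a family of close copies (1.90), complete the largest rises apart from 2 pheromone genes.

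Amino acid synthesis genes gave more rises than falls in the double deletion and more falls than rises in the reference. Of 59 measured genes 23 rose and 1 fell in the double deletion (median 0.30), whereas 3 rose and 19 fell in the reference (median -0.34). The strain difference passed for 19, all positive. SER3, of serine synthesis, read 9.35, 8.94 and 9.54 in N-limited and 8.34, 7.88 and 7.88 in C-limited double deletion (1.24 ± 0.18), against -0.48 in the reference. HIS1, the first enzyme of histidine synthesis (1.25), SER2, phosphoserine phosphatase (1.37), BAT1, the mitochondrial branched-chain aminotransferase (1.16), and ASN1, asparagine synthetase (1.16), rose, and of these ASN1 also rose in the reference (0.79). HOM3, aspartate kinase, differed by 0.20 and LYS20, homocitrate synthase, by 0.79, neither passing, against -1.31 and -0.86 in the reference, and both strain differences passed (1.51 and 1.65), though not for LYS20 without N-limited reference replicate 2 (adjusted p = 0.0120). The gene that fell was ARO9, an aromatic aminotransferase that acts in breakdown (-2.28), and it fell in the reference too (-2.50). Without the uneven arrays 33 genes of the list rose and 1 fell, and the strain difference was more positive for 33 and more negative for 1.

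Phospholipid synthesis genes, several of them known as targets of Ino2 and Ino4, gave few calls between the limitations in the strain that lacks both. Of 23 measured genes of phospholipid synthesis 2 rose and 1 fell (median -0.11), against 7 and 2 in the reference (median 0.31), and none of the 3 calls passed in every model that left out arrays. The strain difference passed for few of the 23 genes, 1 more positive and 2 more negative. INO1, inositol-3-phosphate synthase, read 6.08, 5.95 and 5.68 in N-limited and 5.99, 6.20 and 6.38 in C-limited double deletion. The groups overlap and the difference of -0.29 ± 0.18 did not pass (adjusted p = 0.193), whereas in the reference INO1 read 7.20, 7.75 and 7.66 against 9.81, 9.80 and 9.89 and fell by 2.30. The strain difference of 2.01 ± 0.25 passed (adjusted p = 2.85e-06). In the double deletion, however, INO1 lay little above background under both limitations. A fall as large as that of the reference would have ended below background and could not have been read in full. The strain difference therefore cannot separate a smaller response of INO1 from this lack of room to fall.

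Among the other members, OPI3, a phospholipid methyltransferase, read 6.94, 7.45 and 6.62 against 7.85, 7.54 and 7.85 (-0.74, adjusted p = 0.0307), and the methyltransferase gene CHO2 read 8.05, 8.40 and 8.92 against 8.40, 8.63 and 8.55 (-0.07). ITR1, the main inositol transporter, fell by 0.46 (8.57, 8.44 and 8.40 against 8.91, 8.91 and 8.96), against a rise of 0.57 in the reference, and the difference of -1.03 passed. CKI1, choline kinase, differed by 0.19 against 1.01 in the reference (difference -0.83 ± 0.12). The rises were in EKI1, ethanolamine kinase (0.72), and PCT1, an enzyme of phosphatidylcholine synthesis from choline (0.59). CHO1, phosphatidylserine synthase (-0.14), HNM1, the choline transporter (-0.44), PIS1, phosphatidylinositol synthase (0.19), and OPI1 (-0.35) did not pass.

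Of 17 measured genes of fatty acid synthesis 2 rose and 3 fell, and none of these calls held in every model without arrays. FAS1 fell by 0.87 (9.76, 10.16 and 9.50 against 10.91, 10.59 and 10.51) while FAS2, the other subunit of the synthase (named after its values were seen), was at -0.02. ACC1, acetyl-CoA carboxylase, rose by 0.33 and fell by 0.27 in the reference (difference 0.60 ± 0.09). Of 22 genes of storage lipids and phosphatidate none rose and 2 fell, AYR1 (-1.97) and GPT2 (-0.85), against 6 higher and 1 lower in the reference. The strain difference passed for 3 of the 22, all more negative. GPT2 passed in no model that left out 1 double deletion array other than N-limited replicate 2, and without that array 1 gene rose and 4 fell. DPP1, a diacylglycerol pyrophosphate phosphatase, was at -0.47 without a call and rose by 1.24 in the reference (difference -1.71 ± 0.28). For the 29 measured sterol genes the count rests on single arrays: 8 fell, ERG1 (-1.45) and ERG20 (-1.38) the furthest, but 1 fell without N-limited replicate 1, 1 without N-limited replicate 3, 1 without C-limited replicate 1, and 12 without N-limited replicate 2.

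Reserve carbohydrate and stress genes were mostly lower under N-limitation. Of 18 genes of trehalose and glycogen 10 fell and 1 rose in the double deletion, against 4 and 3 in the reference. The strain difference passed for 3 of the 18, all more negative. GPH1, glycogen phosphorylase, read 7.63, 7.31 and 7.68 in N-limited and 9.16, 8.87 and 8.71 in C-limited double deletion (-1.37 ± 0.19) and rose by 0.87 in the reference (difference -2.24 ± 0.27). GLC3, the glycogen branching enzyme, fell by 1.72, further than the -0.38 of the reference (difference -1.33 ± 0.21), and GAC1, a regulatory subunit for glycogen synthesis, fell too (-1.94). Of 33 stress genes 17 fell and 2 rose (median -0.52), against 21 and 1 in the reference (median -0.74). The small heat shock protein gene HSP26 fell by 3.56 (8.73, 10.02 and 7.82 against 12.68, 12.20 and 12.39), as did GRE1, a hydrophilin (-4.06), and SSA3, an Hsp70 (-3.23). SIP18, a phospholipid-binding hydrophilin, fell by 3.46, less than the -5.84 of the reference (difference 2.38 ± 0.58), and SPG4, a gene of stationary phase, fell too (-2.94), less than the -6.09 of the reference (difference 3.14 ± 0.55). SOD2, the mitochondrial superoxide dismutase, fell by 1.36 (9.38, 9.09 and 9.31 against 10.69, 10.54 and 10.64) and was at -0.07 in the reference.

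The PAU, TIR and DAN genes, cell wall proteins of a family with many close copies, lacked the fall of the reference. Of 19 measured 2 rose in the double deletion, PAU18 (0.85) and PAU4 (0.68), and none fell, whereas 1 rose and 10 fell in the reference; the strain difference passed for 8, all positive. Neither rise passed without N-limited replicate 1, N-limited replicate 3, C-limited replicate 1 or the uneven arrays, where no gene of the list passed, and without C-limited replicate 3 there were 4 rises. PAU3 read 6.54, 6.20 and 6.46 in N-limited and 7.56, 6.42 and 6.45 in C-limited double deletion, against 6.09, 6.05 and 5.95 and 9.28, 9.05 and 9.35 in the reference (difference 2.79 ± 0.34). PAU2 (difference 2.59) and PAU24 (2.55) followed. In the double deletion only the C-limited array that goes against its label was high, at 8.57 for PAU2 against 6.33 and 6.30 on the others.

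The machinery of cytosolic translation and protein turnover showed few calls. Of 128 cytosolic ribosomal protein genes, many in near-identical pairs, 4 rose and 2 fell (median 0.09). These counts turn on single arrays: without N-limited replicate 2, 6 rose and 25 fell, and without N-limited replicate 1, N-limited replicate 3, C-limited replicate 2 or C-limited replicate 3 none passed. Of 69 nucleolar ribosome assembly genes only DBP1 fell (-1.18), and without the uneven arrays it did not pass. Of 34 proteasome genes 3 rose and 1 fell, and without N-limited replicate 2, 5 rose and 11 fell. Of 32 genes of folding and translocation in the endoplasmic reticulum 3 rose and 3 fell, and without N-limited replicate 2, 8 rose and 7 fell.

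**Figure D5:**
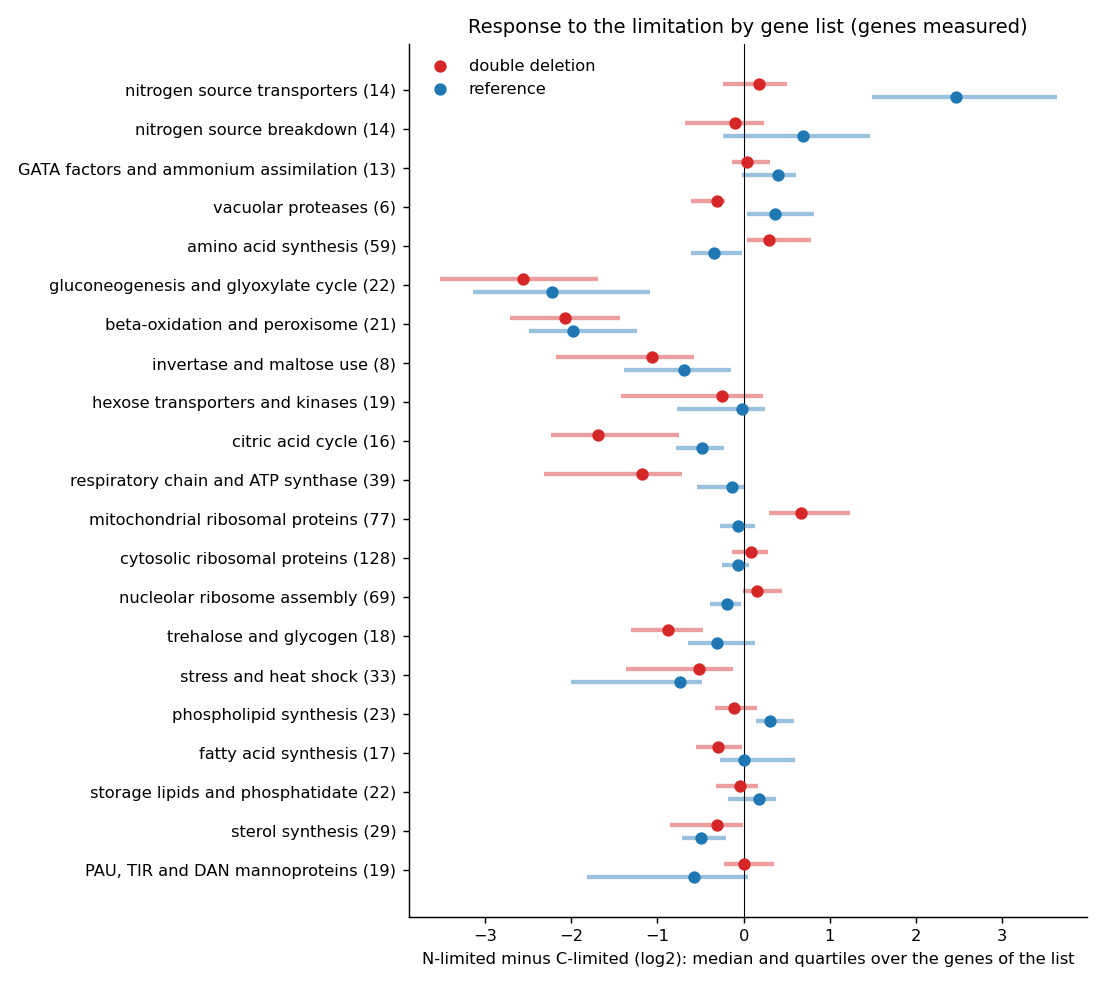
Median (point) and quartiles (bar) of the N-limited minus C-limited difference (log2) over the genes of each list, for the double deletion (red, above) and the reference (blue, below); the number of genes measured stands in brackets. The lists of non-fermentable carbon use lie at similar values in both strains, such as -2.55 and -2.22 for gluconeogenesis, whereas nitrogen source transporters lie at 0.18 in the double deletion and 2.46 in the reference and mitochondrial ribosomal proteins at 0.67 and -0.07.

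The single deletions were set beside the double deletion with the same model. N-limited against C-limited, 1159 genes passed in ino2Δ (21.3%; 10.9% higher and 10.4% lower) and 1217 in ino4Δ (22.3%; 11.5% higher and 10.8% lower), and the differences of the double deletion correlated with theirs at r = 0.441 and 0.403 across the 5449 genes. The response of the double deletion differed from that of ino2Δ for 819 genes, more positive for 431 (7.91%) and more negative for 388 (7.12%), and from that of ino4Δ for 796 (14.6%), more positive for 423 (7.76%) and more negative for 373 (6.85%). Without the 4 arrays that go against their label the first count was 433 and the second 1047. Without N-limited double deletion replicate 2 or without C-limited ino4Δ replicate 3 the second was 1420 and 1223. Nitrogen source transporters were higher under N-limitation in both single deletions: 10 of 14 rose in ino2Δ and 11 in ino4Δ, and OPT2 rose by 6.28 and 6.12, DAL5 by 5.66 and 4.53 and GAP1 by 4.12 and 2.86. The double deletion differed from ino2Δ for 10 of these transporters and from ino4Δ for 9, all more negative in the double deletion. Without the 4 arrays against their label 10 rose in each single deletion and the double deletion differed from each for 10. The list of mitochondrial ribosomal proteins went another way than in the double deletion. Of its 77 genes 1 rose and 54 fell in ino2Δ, and 1 rose and 59 fell in ino4Δ. The double deletion's response was more positive than that of ino2Δ for 61 genes and than that of ino4Δ for 58. Without the arrays that go against their label 9 fell in ino2Δ and 65 in ino4Δ, and the double deletion was more positive for 46 and 62.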

How the data were processed

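Each RNA sample was hybridised to 1 Affymetrix Yeast Genome array. The log2 values deposited by the authors, 1 per probe set (4.70 to 13.5), come from a joint PLIER normalisation of the arrays. PLIER's version is not given in the sources used here, and a joint normalisation makes the arrays comparable but removes any overall shift between groups. The labels and the methods name different RNA extraction kits. Probe sets were paired with genes by symbol (5487) or gene identifier (11) through the platform annotation and a RefSeq gene table of assembly R64, and of 47 genes with more than 1 probe set the brightest was used. The 95th percentile of 1746 probe sets of genes outside that table is the background (5.39 to 5.53 on single arrays), and 288 genes have a mean at or below it. Array medians ran from 7.14 to 7.44. Arrays give no counting depth, so the number of arrays limits the precision.

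A coefficient per group was fitted to all 33 arrays (lmFit and eBayes of limma 3.58.1, run in R 4.3.3; 22 degrees of freedom remained and eBayes added 2.95), and differences between strains are contrasts in that model. Python 3.11.15 with numpy 2.4.6, pandas 2.3.3, scipy 1.17.1 and matplotlib 3.10.9 did the rest. The model was tested on simulated data: in the N-limited against C-limited double deletion over 5449 genes it called 83 of 100 genes changed by 1 on the log2 scale, 100 of 100 changed by 2 and 2 of 5249 unchanged ones. The simulated noise was independent between arrays, with 1 spread per gene in all groups. It held no deviations shared by arrays and no arrays against their label, so it does not give the rate of false calls in the real data.

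Named genes are INO2 and INO4, the 15 largest rises and falls whose arrays do not overlap, the 10 largest strain differences in each direction, per list up to 6 members by change and 4 by strain difference among those that passed, and all members of 6 lists (nitrogen transport, breakdown and GATA factors, gluconeogenesis, hexose transport, phospholipids). Members and gene lists were chosen with earlier results of these data known. Alternatives were other normalisations, an added constant, a filter at background, a model of only the compared groups, the methods' t-test, trend and robust settings, the mean of probe sets, a replicate block, other thresholds and models without arrays. Leaving out the 4 arrays against their label was chosen after seeing the data. The uneven arrays, too, were defined by values of these data and not by a label.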

Additional observations from a re-analysis of the deposited data

Results flagged for a closer look

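The response to the limitation differed between strains, by the test of the difference itself, for 414 genes against the reference, 819 against ino2Δ and 796 against ino4Δ. The genes with the most positive difference from the reference (double deletion minus reference, log2) were SPG4 (3.14), PAU3 (2.79), PAU2 (2.59), PAU24 (2.55), CIS1 (2.41), SIP18 (2.38), ATG41 (2.36), YAR068W (2.32), PDR5 (2.30) and DLD3 (2.10). SIP18 and PAU2 did not pass in every model that left out arrays. ATG41, an autophagy gene, passed in opposite directions, with 9.55, 8.92 and 9.23 in N-limited and 8.56, 8.16 and 8.13 in C-limited double deletion, against 7.73, 7.42 and 7.42 and 8.88, 8.85 and 9.07 in the reference. The uncharacterised YAR068W did likewise (1.07 in the double deletion and -1.25 in the reference). The rises of ATG41 and YAR068W in the double deletion did not pass without the uneven arrays.

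The most negative differences were in OPT2 (-6.27), PUT4 (-4.87), DAL5 (-4.73), MLS1 (-4.39), PTR2 (-4.08), GAP1 (-3.88), DAL80 (-3.87), PDC5 (-3.67), EEB1 (-3.63) and DIP5 (-3.33). All 10 passed in every model that left out arrays. For DIP5 and PAU2 the C-limited double deletion array that carries INO4 against its label stood apart from the others, and its part in their values was not tested.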

How the results depend on the processing

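The number of arrays and their spread limit these results. For N- against C-limitation in the double deletion, 1404 genes passed in the full model, 504 (211 higher and 293 lower) in a model of only its groups, 76 (10 and 66) by the methods' t-test after Benjamini-Hochberg, 2312 (1339 and 973) at an adjusted p of 0.05 and 749 (393 and 356) at 0.001. Leaving out single arrays gave 900 (without N-limited replicate 1) to 2094 genes (without N-limited replicate 2), and 915 without N-limited replicate 3. The difference from the reference gave 792 genes at 0.05 and 220 at 0.001, 634 (233 and 401) without the uneven arrays, and 312 to 636 without single arrays. The difference from ino2Δ gave 1383 at 0.05, 398 at 0.001, 433 without the 4 arrays against their label and 574 to 1225 without single arrays. The difference from ino4Δ gave 429 in a model of only its groups, 1531 at 0.05, 390 at 0.001, 1047 without the 4 arrays against their label and 532 to 1420 without single arrays. Quantile normalisation gave 958 higher and 638 lower genes in the double deletion, and median centring 786 and 659. The t-test gives no value for differences between strains. Among the named genes 3 turned direction: without the uneven arrays DAL82 was at 0.33 (-0.03 in the full model) and RPN1 at 0.06 (-0.97), and SNZ1, at 0.22 in the full model, ran from -0.45 (without N-limited replicate 2) to 0.64 (without N-limited replicate 3), and the cause was not tested. Without the uneven arrays the N-limited double deletion is a lone array, assumed to vary like the other groups.

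With the replicate number as a block 1460 genes passed in the double deletion, and 413, 850 and 825 in the differences from the reference, ino2Δ and ino4Δ. The numbers do not pair the samples: deviations of same-numbered N- and C-limited arrays correlated at 0.02, -0.06 and -0.12 in the double deletion and at -0.11, -0.09 and -0.21 in the reference. The block changed 7 calls among the named genes.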

Other observations

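Counts in other gene groups are given beside the shares over all genes in the double deletion, 14.3% higher and 11.4% lower. Of 7 a-specific mating genes 5 rose and none fell (median 1.22), against 6 in the reference (median 1.96). The strain difference passed for none, but for 4, all more negative, without the arrays against their label. The C-limited double deletion array that carries INO4 read lower than the others for MFA1 and AGA2, at 7.88 against 8.76 and 8.77 for AGA2. MFA1, an a-factor pheromone gene, read 11.64, 11.42 and 11.71 in N-limited and 8.66, 9.87 and 10.05 in C-limited double deletion (2.06 ± 0.29), and MFA2 rose by 1.94, AGA2, an agglutinin subunit, by 1.58 and STE6, the a-factor exporter, by 1.22. Of 18 genes of the phosphate regulon 6 rose and 1 fell, but 2 rose without N-limited replicate 1 or without the uneven arrays and 3 without C-limited replicate 1, and 1 rise passed in every model that left out arrays. SPL2, an inhibitor of low-affinity phosphate uptake, read 7.77, 6.97 and 7.82 against 6.59, 6.61 and 6.65 (0.90 ± 0.14) and was at 0.00 in the reference, and its difference passed (0.91), though neither did without the uneven arrays, nor the difference without N-limited replicate 1 or 3. Of 21 genes of the iron regulon 5 rose and 1 fell, but 3 rose without N-limited replicate 1 and 2 without C-limited replicate 1. FET4, a low-affinity iron transporter, rose by 1.28, less than the 1.88 of the reference (difference -0.60 ± 0.15, which did not pass in most models without 1 array).

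Further groups follow, some of them near the shares over all genes and others, such as autophagy, not. Of 27 genes of sulfate assimilation and methionine 3 rose and 2 fell, and without the uneven arrays 9 rose and 1 fell. MET22, a bisphosphate nucleotidase, read 10.34, 9.69 and 10.22 in N-limited and 8.77, 8.45 and 8.32 in C-limited double deletion (1.57 ± 0.22), and the sulfate permease gene SUL1 fell by 2.21 (8.29, 8.66 and 7.90 against 10.41, 10.56 and 10.50), against -0.66 in the reference (difference -1.55 ± 0.36, which did not pass without N-limited replicate 3, among others). Of 29 genes of the G1/S transition 4 fell and none rose, against none lower and 5 higher in the reference. The strain difference passed for 2 of the 29, all more negative. CLN1, a G1 cyclin, read 7.48, 7.20 and 7.26 against 7.87, 7.91 and 7.82 (-0.55) and was at 0.02 in the reference, and 3 of the 4 falls were lost in some model that left out an array. Of 9 histone genes 1 rose and 1 fell, against 5 higher in the reference, and neither call passed in every model that left out arrays. The strain difference passed for 1 histone gene, more negative in the double deletion. Of 28 vitamin genes 4 rose and 4 fell, with 2 rises without N-limited replicate 1, C-limited replicate 1 or C-limited replicate 3 and 8 falls without N-limited replicate 2, and the nicotinic acid permease gene TNA1 fell by 1.40. Of 34 autophagy genes 2 rose and 9 fell, but 1 rose and 5 fell without N-limited replicate 3 and 6 rose and 10 fell without N-limited replicate 2, and no rise passed in every model that left out arrays. Of 9 zinc and copper genes only CTR3, a copper transporter, fell (-1.28), as it did in the reference (-1.20).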
